A study of Mus musculus with 6 samples.

Results

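Neutrophil genes were followed in brain, liver and intestine of irradiated and untreated mice. The 9 genes were S100a8, S100a9, Camp, Ngp, Mmp8, Mmp9, Fpr1, Fpr2 and Csf3r, taken by symbol from the array's probe annotation, in which Fpr2 stands under its older symbol Fpr-rs2. They were read by 11 of 29922 probes, Csf3r by 3 probes and each of the others by 1, and they are 9 of the 16637 gene symbols on the array. The irradiated group consisted of male FVB mice, 6 to 8 weeks old and carrying a luciferase transgene driven by NF-κB elements, which were killed 3 h after 8.5 Gy of X-rays to the whole body. The untreated group consisted of males of the same transgenic strain and age range that received no radiation. Each organ had 1 column of values per treatment, 6 in all, so every change below is a difference between 2 samples, given with no SD and no p-value. The methods speak of replicate mice, but whether a column is 1 array or a summary over animals was not given in the sources used here. The comparison asked how these genes differed in each organ early after irradiation.

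Neutrophils are short-lived granulocytes of the blood that are made in the bone marrow and enter tissues within hours of injury or infection. S100A8 and S100A9 form calprotectin, the main protein of their cytosol, while cathelicidin, neutrophilic granule protein and 2 matrix metalloproteinases are stored in granules. Formyl peptide receptors guide the cells toward bacterial peptides and injured tissue, and the receptor for granulocyte colony-stimulating factor drives their production and release from the marrow.

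The values are normalized Cy5 intensities on a linear scale. The median over all probes was 103 in both brain samples, 54 in both liver samples, and 64 in irradiated and 64.5 in untreated intestine, and the lowest values were 55 in both brain samples, 26 in irradiated and 25.5 in untreated liver, and 36 in both intestine samples. These differ between organs, so intensities were compared within an organ only. No mark of detection accompanied the values, and a fold is therefore given only where at least 1 of the 2 intensities reached the median of its sample. Log2 changes of dimmer genes stay in the counts, medians and ranges and in the mean over the Csf3r probes. Of the markers that define each organ, 7 of 9 measured brain genes reached the median in irradiated and in untreated brain, 8 of 8 liver genes in both liver samples, and 7 of 8 intestinal genes in both intestine samples. Liver markers also reached the median in intestine, 7 of 8 in the irradiated and 8 of 8 in the untreated sample, and albumin (Alb) read 268 in irradiated and 2175 in untreated intestine. Past 1.8-fold among these markers, Alb, Fgb, Ttr, Cyp2e1 and Lyz1 were lower in intestine, Ahsg was lower in liver, and in brain Mbp and Alb were lower and Ttr was higher. The part of such tissue differences in the values of the neutrophil genes was not tested.

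S100a8 and S100a9 were higher in irradiated liver, Fpr2 was lower there, and no other neutrophil gene passed 1.8-fold in any organ. Of the 8 members with a value in liver, 2 were higher and 1 was lower, against 1.51% of all 16118 genes that were higher and 2.53% that were lower. In brain 0 of 9 were higher and 0 were lower, where 0.447% of 15662 genes were higher and 0.919% lower. In intestine 0 of 9 were higher and 0 were lower, where 1.72% of 16595 genes were higher and 2.79% lower. The median log2 change over the members was 0.05 in liver, 0.05 in brain and 0.45 in intestine, beside 0.02 over all genes in each organ. In bulk tissue, a change in the number of neutrophils cannot be told apart from a change in the RNA of each cell. The study names monocytes beside neutrophils as cells that express S100a9, and the array does not tell such sources apart.

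**Figure D1:**
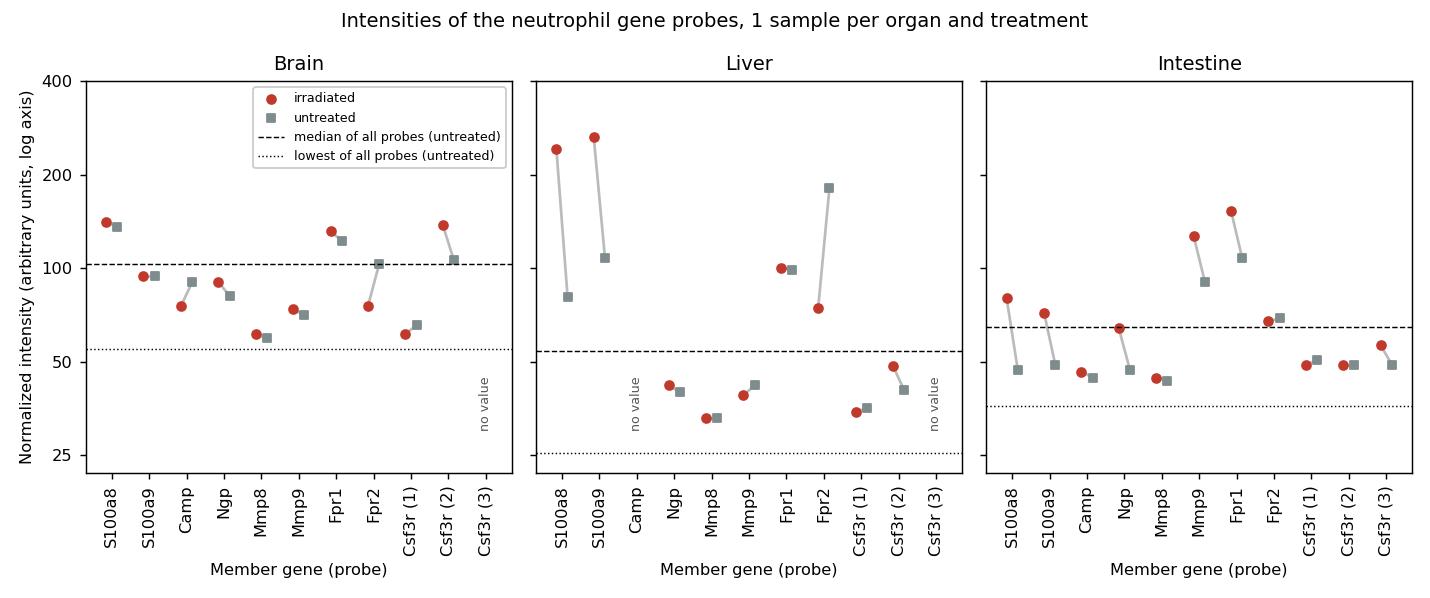
Normalized intensity (log axis) of each neutrophil gene probe in irradiated (red circles) and untreated (grey squares) brain, liver and intestine, with the median (dashed) and lowest (dotted) value of all probes in the untreated sample. In liver, S100a8 and S100a9 stand higher and Fpr2 lower in the irradiated sample, while 5 of the 9 measured liver probes lie below the median in both samples.

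S100a8 and S100a9 encode the calcium-binding subunits of calprotectin, an antimicrobial protein that neutrophils release at sites of inflammation. They are neighbours on chromosome 3, S100a8 at chr3:90669071-90670034 and S100a9 at chr3:90692630-90695721 of GRCm38.p6, with 22.6 kb between them. S100a8 read 242.5 in irradiated and 81 in untreated liver, which is 2.99-fold higher (log2 1.58). S100a9 read 263.75 in irradiated and 108 in untreated liver, 2.44-fold higher (log2 1.29). All of these liver values lay above the median of the sample, and among 16118 genes ordered from the largest change upward, S100a8 was number 37 and S100a9 number 63. In intestine both were also higher after irradiation but short of the threshold. S100a8 read 80 in irradiated and 47 in untreated intestine, and S100a9 read 72 in irradiated and 49 in untreated intestine, so that both passed the sample median in the irradiated organ alone. The ratios were 1.70 for S100a8 and 1.47 for S100a9, but the untreated values were 1.31 and 1.36 times the lowest value of that sample, close to its floor, so the sizes are uncertain. In brain S100a8 read 140.5 in irradiated and 136 in untreated mice, and S100a9 was 94.5 in both. In these columns the size of the difference followed the same order for both genes, with liver first, intestine next and brain last. Differences between organs were not tested. The study itself reported S100a9 folds that were nearly equal in intestine and liver and smaller in brain.

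The promoters of S100a8, S100a9 and Fpr2 are shown because these 3 genes passed the threshold in liver. Each window runs from 250 bases before to 50 bases after the annotated start, 5′ to 3′ on the gene's own strand, from RefSeq on GRCm38.p6, and capitals mark matches to the motifs named after the sequences. The windows are chr3:90668821-90669120 (plus strand) for S100a8, chr3:90695672-90695971 (minus strand) for S100a9 and chr17:17887574-17887873 (plus strand) for Fpr2.
S100a8: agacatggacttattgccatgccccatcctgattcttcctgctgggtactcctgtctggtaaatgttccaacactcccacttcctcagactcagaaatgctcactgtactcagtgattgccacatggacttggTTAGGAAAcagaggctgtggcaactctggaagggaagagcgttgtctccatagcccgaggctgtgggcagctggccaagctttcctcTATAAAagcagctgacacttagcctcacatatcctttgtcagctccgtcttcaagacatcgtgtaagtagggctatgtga
S100a9: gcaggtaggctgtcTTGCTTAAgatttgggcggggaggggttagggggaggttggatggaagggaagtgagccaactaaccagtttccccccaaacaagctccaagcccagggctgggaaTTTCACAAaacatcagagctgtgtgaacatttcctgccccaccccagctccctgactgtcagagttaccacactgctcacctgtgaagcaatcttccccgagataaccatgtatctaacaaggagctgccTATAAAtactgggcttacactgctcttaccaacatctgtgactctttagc
Fpr2: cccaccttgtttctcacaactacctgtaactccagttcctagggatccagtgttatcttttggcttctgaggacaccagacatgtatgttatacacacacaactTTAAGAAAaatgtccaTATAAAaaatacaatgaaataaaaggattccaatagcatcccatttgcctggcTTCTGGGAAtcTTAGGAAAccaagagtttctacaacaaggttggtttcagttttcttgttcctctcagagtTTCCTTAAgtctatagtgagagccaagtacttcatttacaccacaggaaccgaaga

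Promoter windows were found for 8 of the 9 members, and 4 motifs were searched on both strands. These were the TATA box as TATAAA, the C/EBP motif of granulocyte regulators as TTNNGNAA, the STAT motif as TTCNNNGAA, and the NF-κB consensus. TATAAA starts 30 bases before the annotated start of S100a8 and at the start base itself in S100a9. The C/EBP letters occur 1 time in S100a8, 2 times in S100a9 and 3 times in Fpr2, and the STAT letters are in Fpr2 alone of the 8. The NF-κB consensus was found in the Csf3r window and in none of the other 7. Over the 8 windows, TATAAA was in 5, the C/EBP letters in 6, the STAT letters in 1 and the NF-κB consensus in 1. Over 32851 windows of the same length these motifs were in 13.6%, 40.7%, 8.30% and 5.80%, in the same order. A match describes letters and shows no binding.

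Camp encodes cathelicidin, a bactericidal peptide of the specific granules, and Ngp encodes neutrophilic granule protein, which is related to it. Camp had no value in liver. It read 46.5 in irradiated and 44.5 in untreated intestine and 75.5 in irradiated and 90 in untreated brain, all below the median of the sample. Ngp read 64 in irradiated intestine, which is the median of that sample, and 47 in untreated intestine (1.36-fold). In liver Ngp read 42 in irradiated and 40 in untreated mice, and in brain 90.5 in irradiated and 81.5 in untreated mice, below the median in both organs. Ngp thus lacked the liver difference seen for the calprotectin genes, though at an intensity where a difference is hard to see.

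Mmp8 (neutrophil collagenase) and Mmp9 (gelatinase B) encode proteases of the granules that cut collagen. Mmp8 lay near the bottom of every array, with 33 in both liver samples, 44.5 in irradiated and 43.5 in untreated intestine, and 61.5 in irradiated and 59.5 in untreated brain. Its intensity was at most 1.29 times the lowest value of the same sample, too close to the floor to read a difference. Mmp9 was above the median in intestine alone, with 127 in irradiated and 90.5 in untreated mice, 1.40-fold higher. In liver Mmp9 read 39 in irradiated and 42 in untreated mice, and in brain 74 in irradiated and 70.5 in untreated mice. Mmp9 is also made by macrophages and other cells, and the array does not tell these sources apart.

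Fpr1 and Fpr2 encode formyl peptide receptors, which draw neutrophils toward bacteria and damaged cells, and Fpr2 also binds serum amyloid A. The genes lie 3.88 kb apart on chromosome 17, yet moved differently in liver. Fpr2 read 74.5 in irradiated and 180.5 in untreated liver, 2.42-fold lower (log2 -1.28), and both values were above the median. Ordered from the lowest log2 change upward, Fpr2 was number 121 of 16118 genes in liver. Fpr1 read 100.5 in irradiated and 99 in untreated liver. In intestine it was Fpr1 that differed, at 153 in irradiated and 107.5 in untreated mice (1.42-fold higher), while Fpr2 read 67.5 in irradiated and 69 in untreated mice. In brain Fpr2 read 75.5 in irradiated and 103 in untreated mice (1.36-fold lower), and Fpr1 read 131.5 in irradiated and 122.5 in untreated mice. Of the other formyl peptide receptor genes, Fpr-rs3 and Fpr-rs4 lay below the median in all samples, and so did Fpr-rs6 in intestine, where alone it had values. None of them passed 1.8-fold.

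Csf3r encodes the receptor for granulocyte colony-stimulating factor and had 3 probes. The first (mMC023087) read 34.5 in irradiated and 35.5 in untreated liver, 49 in irradiated and 50.5 in untreated intestine, and 61.5 in irradiated and 65.5 in untreated brain, all below the median. The second (mMC025079) read 48.5 in irradiated and 40.5 in untreated liver, 49 in both intestine samples, and 138 in irradiated and 106 in untreated brain. The third (mMR026576) had a value in intestine alone, with 56.5 in irradiated and 49 in untreated mice. The first and second probes differed in sign in brain and in liver. Their mean gave log2 changes of 0.11 in liver and 0.14 in brain, and the mean of all 3 gave 0.05 in intestine.

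**Figure D2:**
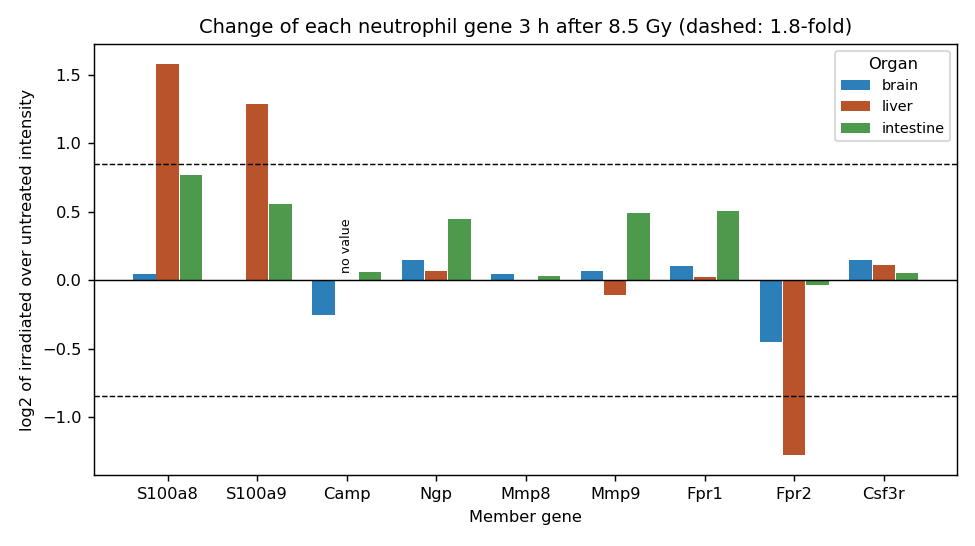
Log2 of irradiated over untreated intensity for each neutrophil gene (bars; mean over probes for Csf3r) in brain, liver and intestine, with dashed lines at 1.8-fold. S100a8 (1.58) and S100a9 (1.29) pass the upper line and Fpr2 (-1.28) the lower one in liver, and Camp has no value there.

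In intestine more of the genes had a small upward difference. Its size shrank with a pseudocount of 50 and was unchanged for S100a8, S100a9, Fpr1, Mmp9 and Ngp without low-signal probes. Of the 9 members, 8 were above 0 on the log2 scale and 1 was below, while 51.4% of all genes were above 0. The 8 include Camp (46.5 in irradiated and 44.5 in untreated), Mmp8 (44.5 in irradiated and 43.5 in untreated) and Csf3r (log2 0.05). These lay below the median in both intestine samples, where the sign of so small a difference cannot be read. The differences of S100a8 (0.77), S100a9 (0.56), Fpr1 (0.51), Mmp9 (0.49) and Ngp (0.45) were all at least 0.4, a size reached by 10.1% of all genes in intestine. Among all intestinal genes these 5 changes lay between percentile 91.5 (Ngp) and percentile 97.5 (S100a8), and none passed 1.8-fold. S100a8, S100a9 and Ngp reached the median in irradiated intestine alone, and in untreated intestine they were at 1.31 to 1.36 times the lowest value. With a pseudocount of 50, S100a8 alone stayed at 0.4 or more (0.42), and the others had log2 changes of 0.37 for Fpr1, 0.33 for Mmp9, 0.30 for S100a9 and 0.23 for Ngp. A pseudocount brings the log2 change of every gene nearer to 0. The share of all genes at 0.4 or more was not computed with it. Camp, Mmp8, Fpr2 and Csf3r lay between -0.03 and 0.06. In liver the members were spread more widely, from -1.28 to 1.58, but the 5 that did not pass lay between -0.11 and 0.11. In brain all 9 lay between -0.45 and 0.15.

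**Figure D3:**
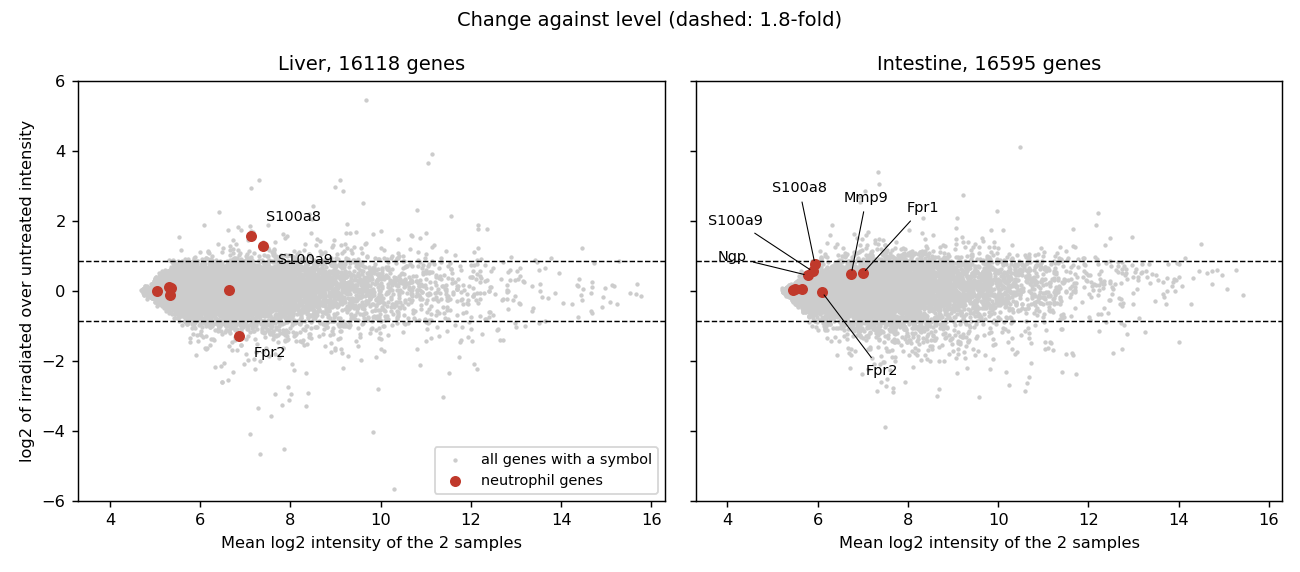
Log2 of irradiated over untreated intensity against mean log2 intensity for all genes (grey) and neutrophil genes (red) in liver and intestine, with dashed lines at 1.8-fold. In liver S100a8 and S100a9 stand above and Fpr2 below the bulk of genes of the same level, while in intestine 5 members lie together between 0.45 and 0.77.

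The position of each probe among all probes of its sample gave a view of level that does not rest on the organ's scale. S100a8 lay at percentile 89.0 in irradiated and 68.8 in untreated liver, at 61.8 in irradiated and 21.1 in untreated intestine, and at 64.7 in irradiated and 63.5 in untreated brain. S100a9 lay at 89.8 in irradiated and 76.6 in untreated liver, at 56.6 in irradiated and 28.2 in untreated intestine, and at 44.9 in both brain samples. Fpr2 lay at 65.9 in irradiated and 85.6 in untreated liver, while it was at 52.8 in irradiated and 54.4 in untreated intestine. In untreated mice S100a8, S100a9, Fpr1 and Fpr2 had their highest position in liver, and Mmp9 had its highest in intestine. With 1 sample per organ the spread is unknown, so it is not known which of these organ positions differ beyond it.

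The genes whose 3 log2 changes lay nearest to those of S100a8, among 15395 genes with a value in every organ, were Bcl6b, Krt18, S100a9, Ppp1r3c and Fmo5. The distance was 0.21 for Bcl6b, 0.35 for the keratin gene Krt18, 0.37 for S100a9, 0.41 for Ppp1r3c and 0.42 for Fmo5. It is the Euclidean distance over 3 log2 changes, 1 per organ. Krt18 had log2 changes of 1.71 in liver and 1.04 in intestine, and Bcl6b of 1.42 in liver and 0.79 in intestine.

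Most other neutrophil genes stayed within 1.8-fold in liver, as did most of all 16118 genes, of which 1.51% were higher and 2.53% lower. Among surface receptors and integrins, 0 of 21 measured genes were higher and 0 lower in liver, with a median log2 change of -0.03. Itgam, the integrin CD11b of neutrophils and monocytes, read 120.5 in irradiated and 83.5 in untreated liver. The leukotriene receptor gene Ltb4r1 read 96.5 in irradiated and 90.5 in untreated liver, and the chemokine receptor gene Cxcr2 lay below the median in both. Other surface genes were lower in irradiated liver. C5ar1 read 150.5 in irradiated and 228 in untreated liver, Ptafr 36 in irradiated and 60 in untreated, and Cxcr1 70.5 in irradiated and 95.5 in untreated. None of 6 measured azurophil granule genes, 5 NADPH oxidase genes and 5 transcription factors of granulopoiesis passed 1.8-fold in liver. Mpo, the myeloperoxidase of azurophil granules, lay below the median in both liver samples, and Cybb, the catalytic oxidase subunit, had a log2 change of -0.82. Of 11 specific and gelatinase granule genes 2 were higher in liver and 0 lower, and both are also products of hepatocytes. Lcn2, the iron-sequestering lipocalin 2, read 5372.5 in irradiated and 123 in untreated liver (43.7-fold higher), and the heme carrier hemopexin (Hpx) 3633.5 in irradiated and 1157.5 in untreated liver (3.14-fold). Cd177, a surface glycoprotein of neutrophils, came just short of the threshold at 69 in irradiated and 38.5 in untreated liver (1.79-fold). The lactoferrin gene Ltf read 89 in irradiated and 92.5 in untreated liver. Of 12 products of mature neutrophils 2 were higher and 0 lower, Lrg1 at 3.71-fold and the protease inhibitor Slpi at 1.81-fold. Lrg1 read 8758.5 in irradiated and 2359 in untreated liver, where it already lay at percentile 98.6 of all genes. Its cell source was not tested. Short of the threshold, Retnlg read 142 in irradiated and 105.5 in untreated liver. Il1b was lower, at 610 in irradiated and 1034 in untreated liver.

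In intestine the same lists were again mostly within the threshold, where 1.72% of all genes were higher and 2.79% lower. Of 11 specific and gelatinase granule genes 1 was higher and 2 were lower, with Lcn2 at 209.5 in irradiated and 75.5 in untreated mice (2.77-fold higher). Ltf came close to the threshold at 194.5 in irradiated and 110.5 in untreated intestine (1.76-fold). Lower were haptoglobin (Hp, 2.81-fold) and the lysozyme gene Lyz2 (3.52-fold), which macrophages express too, and the Paneth cell lysozyme gene Lyz1 was 4.17-fold lower. Among products of mature neutrophils 1 of 13 was higher (Slpi, 2.17-fold) and 1 lower (Wfdc21, 2.17-fold). In untreated liver Hp and Wfdc21 lay at percentiles 99.8 and 99.9 of all genes. Several liver markers, Alb among them, were also lower in irradiated intestine. Whether these differences are related was not tested. None of 6 azurophil granule genes, 5 oxidase genes and 5 transcription factors passed. Of the 21 surface genes 0 were higher and 0 lower, with a median of 0.11. The decoy receptor gene Il1r2 came nearest to the threshold at 120 in irradiated and 67.5 in untreated intestine. Other genes of these lists were lower but short of the threshold. Pglyrp1 read 502.5 in irradiated and 719.5 in untreated intestine, and Cyba 215 in irradiated and 301 in untreated. Ncf4 read 142.5 in irradiated and 188.5 in untreated intestine, and Itgb2 60 in irradiated and 78 in untreated. In brain Lcn2 alone passed 1.8-fold among all of these lists, at 211.5 in irradiated and 70.5 in untreated mice (3.00-fold higher). Of all genes in brain, 0.447% were higher and 0.919% lower.

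Ligands that act on neutrophils were read in the same way. In liver 2 of 14 measured genes were higher and 1 was lower, against 1.51% of all genes higher and 2.53% lower. Cxcl1, a chemokine that recruits neutrophils through Cxcr2, read 1645.75 in irradiated and 184.5 in untreated liver (8.92-fold), and Saa3, of the serum amyloid A family, 8844 in irradiated and 581.5 in untreated liver (15.2-fold). By qPCR the study itself reported a much smaller rise of Saa3 in liver than by its array, so the size is uncertain. Hc, the source of the chemoattractant C5a, was 1.88-fold lower. Cxcl2, Cxcl3 and Cxcl5 lay below the median in both liver samples, and Csf3, the ligand of Csf3r, read 56 in irradiated and 77 in untreated liver. In intestine Saa3 was 2.19-fold higher, 1 of 15 genes, where 1.72% of all genes were higher. Cxcl1 read 104 in irradiated and 68.5 in untreated intestine. In brain 0 of 12 were higher and 0 lower, where 0.447% of all genes were higher and 0.919% lower. None of the endothelial adhesion genes was higher in any organ, and Glycam1 was 2.17-fold lower in intestine. Icam1, the ligand of neutrophil integrins, read 76 in irradiated and 56 in untreated liver, 117 in irradiated and 83.5 in untreated intestine, and 101 in irradiated and 66.5 in untreated brain.

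Close relatives of the members were read next. Of all genes, 1.51% were higher and 2.53% lower in liver, 1.72% higher and 2.79% lower in intestine, and 0.447% higher and 0.919% lower in brain. Of 12 other S100 genes measured in each organ, 2 were higher in liver, 1 in intestine and 0 in brain, and none was lower. S100a10, a partner of annexin A2, read 6349 in irradiated and 1432 in untreated liver (4.43-fold). S100a6 (calcyclin) read 159.5 in irradiated and 70 in untreated liver (2.28-fold), and 8832 in irradiated and 2376 in untreated intestine (3.72-fold). These genes are expressed widely outside neutrophils. Of 22 other matrix metalloproteinase and inhibitor genes, 0 were higher and 0 lower in each organ, with medians of 0.03 in liver, 0.02 in intestine and -0.02 in brain. Among receptors for calprotectin and partners of Csf3r, the scavenger receptor gene Cd36 was higher in intestine (2.27-fold), as 1 of 6, and none of 5 passed in liver or in brain.

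**Figure D4:**
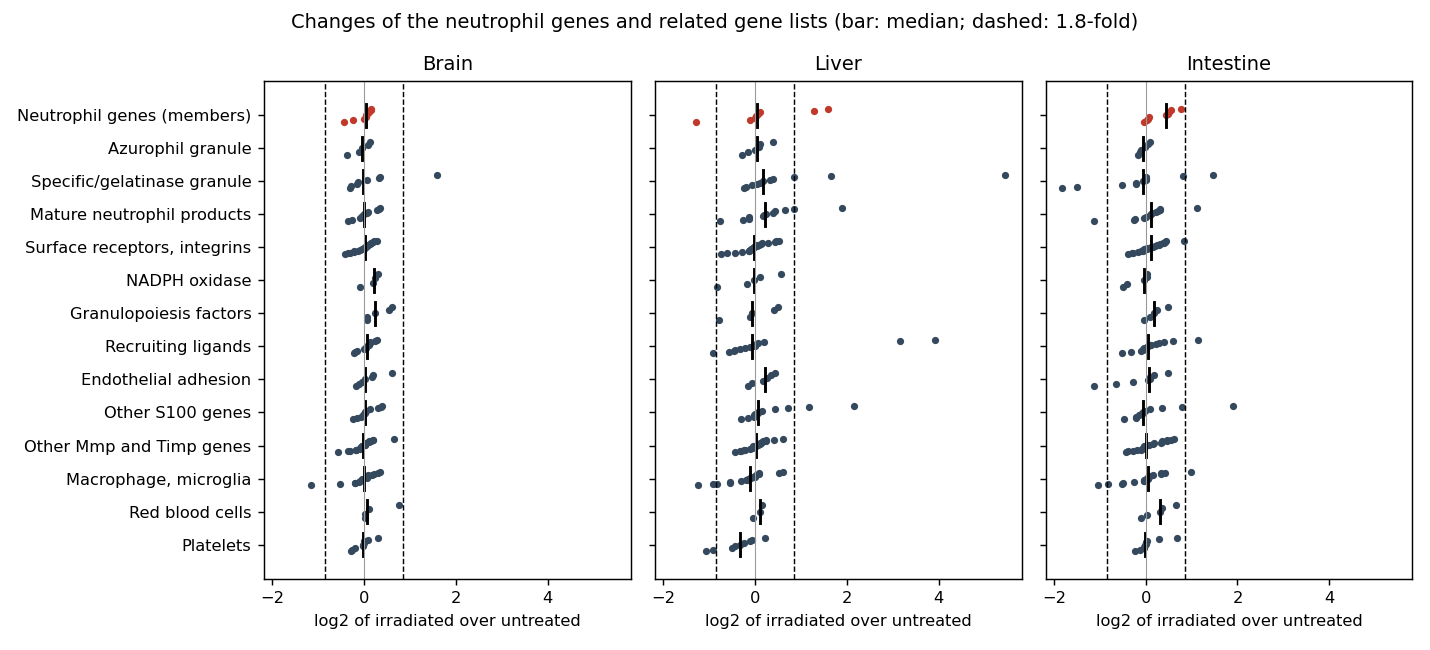
Log2 of irradiated over untreated intensity for each measured gene (points) of the neutrophil members (red) and related lists (blue) in brain, liver and intestine, with the list median (bar) and 1.8-fold (dashed). The members' median is 0.05 in brain and liver and 0.45 in intestine, and most lists hold 0 to 2 genes past the lines.

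Markers of other blood and tissue cells moved with these results as follows. The shares of all genes past 1.8-fold given above apply to these counts too. Of 18 measured macrophage and microglia genes in liver, 0 were higher and 2 lower, Adgre1 (2.36-fold) and Aif1 (1.90-fold), and the summed intensity of the list was 3670.5 in irradiated and 5427 in untreated liver, of which Vsig4 made up 1660 in irradiated and 2938.5 in untreated liver. The median log2 change of the list was -0.11. Platelet genes had 0 of 9 higher and 2 lower in liver, Gp5 and Gp1ba, with sums of 831.5 in irradiated and 1065.5 in untreated liver. Of 3 measured red blood cell genes in liver none passed, with sums of 307 in irradiated and 284.5 in untreated liver. Of 10 genes of squamous epithelium, which can also express S100a8 and S100a9, 0 were higher and 1 was lower in liver (Krt14), and 0 of 10 passed in intestine. None of 4 eosinophil genes and 7 mast cell genes passed in liver, and all 4 eosinophil genes lay below the median in both samples of each organ. In intestine 1 of 19 macrophage genes was higher (C1qa, 1.99-fold) and 1 lower (Adgre1, 2.06-fold), and the summed intensity of that list was 3166 in irradiated and 3526 in untreated intestine. Vsig4 alone read 1051.5 in irradiated and 1503.5 in untreated intestine, and the median log2 change of the list was 0.04, so the sum does not speak for most of its genes. None of 5 red blood cell, 10 platelet, 4 eosinophil and 8 mast cell genes passed in intestine. In brain 1 of 16 macrophage and microglia genes was lower (P2ry12, a microglial receptor) and none of the other blood cell markers passed. The part of these cells in the differences of S100a8, S100a9 and Fpr2 was not tested.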

How the data were processed

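The authors hybridized Cy5-labelled RNA to a 1-colour mouse oligonucleotide array, took local background off each spot, dropped controls together with any spot whose signal-to-noise ratio was under 1 and normalized in R by a method not given in the sources used here. The deposited values are intensities on a linear scale in steps of 0.25. Sorted values of the 2 samples of an organ differed by at most 0.05 (log2), so the distribution had been equalized within each organ. For each probe, irradiated intensity was divided by untreated intensity without a pseudocount, and the log2 ratios were averaged over the probes of a gene, and called past 1.8-fold. Symbols were updated with RefSeq annotation of GRCm38.p6 (17558 current, 3410 updated, 52 kept, 8902 probes without one). The 9 members and 21 other lists were chosen with earlier results of these data known. Named are all members, at most 6 genes per list and organ past 1.8-fold with an intensity at the sample median, the 5 genes nearest to the member with the largest change, and, chosen after their values were seen, the genes given with their values although they did not pass. The number of arrays limits the precision, no test within an organ was possible with 1 sample per group, and no model across the organs was fitted. The calculation of the calls was checked on simulated data with planted changes. That check does not measure how often 1 sample per group gives a false call. Alternatives were median-centring, quantile normalization, loess removal of the intensity trend (span 0.3), no low-signal probes (below percentile 25), thresholds of 2-fold and 1.5-fold, a pseudocount of 50, the brightest probe, and probes in place of genes. Python 3.11.15, numpy 2.4.6, pandas 2.3.3, statsmodels 0.14.6 and matplotlib 3.10.9 were used.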

Additional observations from a re-analysis of the deposited data

Results flagged for a closer look

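Ttr, which encodes the thyroxine carrier transthyretin and was measured as a marker of liver, passed 1.8-fold in opposite directions in 2 organs. Its log2 change was 0.90 in brain (428.5 in irradiated and 229 in untreated mice) and -0.92 in intestine (115 in irradiated and 218 in untreated mice). The difference between the organs was not tested. The brain call was lost with the intensity trend removed and with a pseudocount, and the intestinal call with a pseudocount. No neutrophil gene passed the threshold in opposite directions.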

How the results depend on the processing

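The calls of S100a8, S100a9 and Fpr2 in liver were kept under median-centring, quantile normalization, removal of the intensity trend, omission of low-signal probes, a pseudocount of 50 and the brightest probe, and at 2-fold. Over these settings the log2 change in liver ran from 1.16 to 1.58 for S100a8, from 0.99 to 1.29 for S100a9 and from -1.33 to -0.89 for Fpr2. With a threshold of 1.5-fold, 1 member was higher in intestine (S100a8), and no other count changed by over 1.5 times. Without low-signal probes Mmp8 had no value in any organ and Camp none in intestine, and after quantile normalization, which needs a value in all samples, Camp had none. In intestine the log2 change ran over these settings from 0.42 to 0.81 for S100a8, from 0.30 to 0.57 for S100a9 and from 0.23 to 0.48 for Ngp, lowest with the pseudocount, and in brain that of Csf3r from 0.11 to 0.38. With a pseudocount the calls for Slpi, Aif1, Gp5, Gp1ba, S100a6 and Krt14 in liver and for Saa3, Glycam1, Wfdc21, Adgre1, C1qa, Ttr and Cyp2e1 in intestine were lost, and that for Slpi in liver also with the intensity trend removed. Quantile normalization lost the calls for Hc and Ahsg in liver. No paired analysis was possible because each group has 1 sample within an organ; a fit across the organs with organ as a block was not run. Most members lie near or below the median of their array, where a change is hard to see.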
